A study of Mus musculus with 4 samples.

Results

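Genes that mark the precursor end of the oligodendrocyte lineage were followed through 4 MERFISH sections of the mouse striatum. They were Pdgfra, Gpr17, C1ql1, Tnr, Olig1 and Ptprz1, taken by name as 6 of the 383 genes of the imaging panel. MERFISH (multiplexed error-robust fluorescent in situ hybridization) images single transcripts in tissue, so that each segmented cell carries a count for each gene and a position. The 2 sections labelled Young came from mice of 2 months and the 2 labelled Aged from mice of 18 months, and the labels number them Young 1, Young 2, Aged 1 and Aged 2. All were coronal slices through both striata of C57BL/6NTac mice, 10 µm thick, with no treatment. The sex of each section's mouse is not given in the sources used here. The labels do not say that the 2 sections of an age came from separate mice, though the study describes its replicates as biological. The p-values below rest on the spread between 2 sections an age. An age fit with a section left out has 1 section at an age, and its p cannot measure the spread there.

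Oligodendrocytes, the myelin-forming glia of the brain, arise throughout life from precursor cells that are spread over grey and white matter. A precursor first divides under platelet-derived growth factor, then leaves the cycle, passes through a short committed stage and switches on the myelin genes. Pdgfra encodes the receptor for that growth factor and marks the dividing precursor. Gpr17 encodes a G protein-coupled receptor made mainly at the committed stage and lost before myelin is formed. Olig1 is a transcription factor of the whole lineage. C1ql1 encodes a secreted protein of the C1q family. Tnr encodes tenascin-R, a matrix glycoprotein made by the lineage and by some neurons. Ptprz1 encodes a receptor-type tyrosine phosphatase of precursors and astrocytes. In the mouse build GRCm38, the gene bodies lie at chr5:75152292-75198215 for Pdgfra, chr11:102939264-102946688 for C1ql1, chr1:159523769-159931729 for Tnr, chr16:91269772-91271933 for Olig1 and chr6:22875502-23052916 for Ptprz1. C1ql1 is on the minus strand and the other 4 are on the plus strand.

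After small and gene-poor cells were left out, 281824 of 320663 segmented cells remained, between 68011 and 74624 a section. Kept transcripts numbered 18765491 in Aged 1, the shallowest section, and 29004185 to 36035355 in the others. The median per kept cell was 215 in Aged 1 and 293 to 400 in the others. No cell barcode was shared between sections. Cells were sorted into 7 classes from all panel genes, and a class is called by its name with "-like" because it was rebuilt here from markers. The precursor-like class held 7083 cells, 1853 in Young 1, 2086 in Young 2, 1502 in Aged 1 and 1642 in Aged 2. The cluster behind this class was named by these same 6 genes, so their height in it is no separate evidence. In it all 6 stood over 1.5-fold above the other cells. All 6 were among its 7 leading genes by fold, with the metalloprotease gene Mmp2. The oligodendrocyte-like class held 35829 cells.

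By level, the 6 genes split into 3 that were nearly restricted to precursor-like cells and 3 that a further class shared. Levels are given as transcripts per 10000 transcripts of a class, for each gene in cells classed without that gene. They compare classes for 1 gene and not 1 gene with another, since probe sets differ in number and efficiency. The classes were made from the same cells, and the clusters behind them used every gene, so the class levels are descriptions with no test.

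Pdgfra stood at 309 in Young 1, 307 in Young 2, 350 in Aged 1 and 348 in Aged 2 in precursor-like cells. The next class, vascular-like cells, had 11.1 ± 1.04 (SD, n = 4 sections), and oligodendrocyte-like cells had 7.10 ± 0.376. Microglia-like cells had 6.63 ± 3.29, astrocyte-like cells 4.30 ± 0.494, and neuron-like cells 3.87 ± 0.275, and medium spiny neuron-like cells were lowest. From the oligodendrocyte-like class downward, each class overlapped the next over the 4 sections.

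Gpr17 stood at 402, 376, 311 and 219 in precursor-like cells of Young 1, Young 2, Aged 1 and Aged 2, so that both aged sections were below both young ones. Oligodendrocyte-like cells followed with 12.5 ± 6.53 and microglia-like cells with 9.95 ± 1.88, with ranges that overlapped. The other 4 classes lay between 2.67 and 3.62, each overlapping the next.

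C1ql1 was lower in number, at 41.8, 37.2, 40.7 and 35.4 in precursor-like cells. All 6 other classes lay between 0.890 and 1.53 on average, and each overlapped its neighbour in the order. Its level in precursor-like cells was 25.3 times that in the next class.

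Tnr stood at 240, 202, 178 and 169 in precursor-like cells. Neuron-like cells came next with 19.8 ± 2.03, above all 5 other classes in every section. Medium spiny neuron-like cells had 11.3 ± 1.29 and oligodendrocyte-like cells 10.3 ± 2.48, which overlapped. Vascular-like cells were lowest with 3.57 ± 0.421.

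Olig1 stood at 333, 330, 396 and 345 in precursor-like cells and at 141 ± 8.47 in oligodendrocyte-like cells. Microglia-like cells had 27.0 ± 3.53 and astrocyte-like cells 24.4 ± 1.76, which overlapped, and medium spiny neuron-like cells were lowest with 6.62 ± 0.408.

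Ptprz1 stood at 434, 447, 449 and 390 in precursor-like cells and at 207 ± 10.7 in astrocyte-like cells, a 2.07-fold difference. Vascular-like cells had 32.9 ± 1.82 and microglia-like cells 29.6 ± 3.17, which overlapped. The 2 neuronal classes had 16.9 ± 1.74 and 16.1 ± 1.79, which overlapped too.

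**Figure D1:**
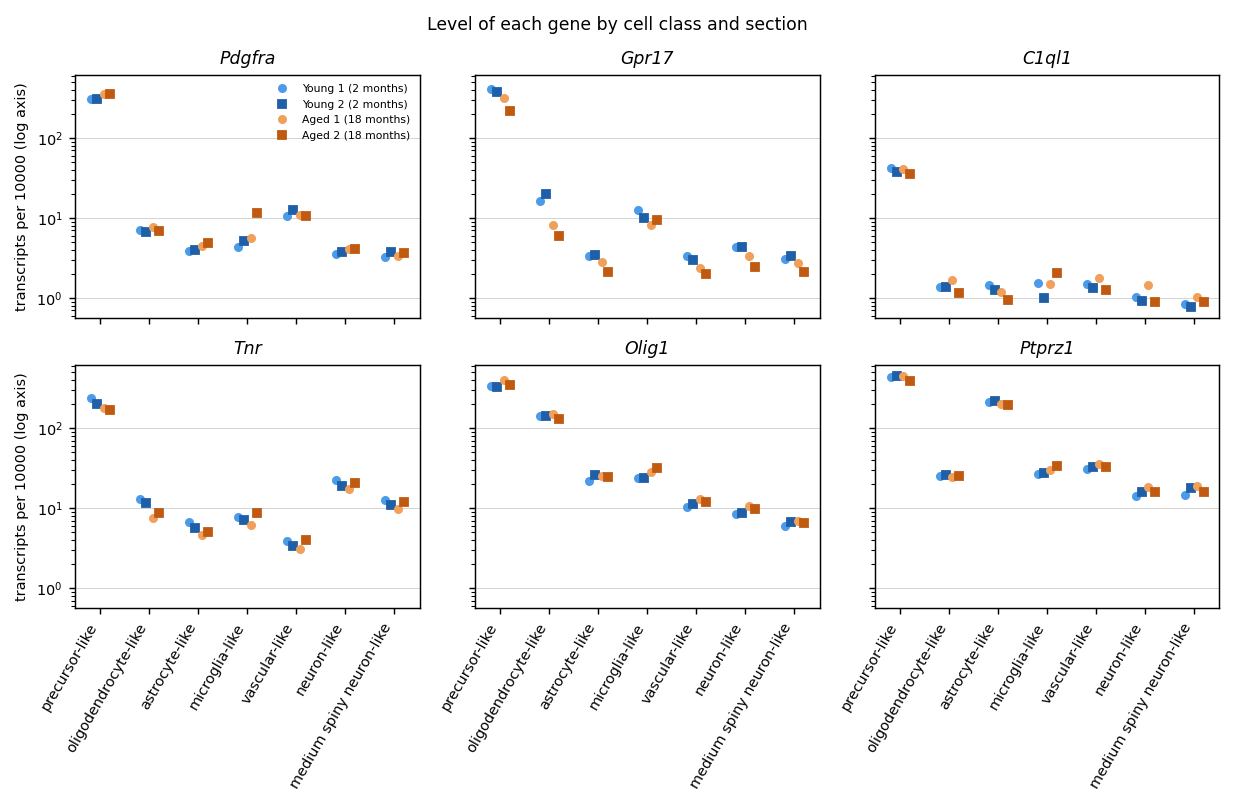
Level of each of the 6 genes (transcripts per 10000, log axis) in the 7 cell classes. Each point is 1 section, blue for young and orange for aged. All 6 genes were highest in precursor-like cells, whose cluster they had named. Olig1 kept 141 per 10000 in oligodendrocyte-like cells and Ptprz1 kept 207 in astrocyte-like cells.

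Because the classes differ in size, the same genes look different by where their transcripts lay. Precursor-like cells held 51.5% to 54.1% of a section's Pdgfra transcripts, 52.9% to 58.0% of its Gpr17 and 32.1% to 37.8% of its C1ql1. Neuron-like cells held 17.6% to 20.4% of the Pdgfra, 17.3% to 20.4% of the Gpr17 and 27.7% to 32.6% of the C1ql1. Medium spiny neuron-like cells held a further 12.9% to 16.9% of the C1ql1. Precursor-like cells held 14.3% to 19.2% of the Tnr transcripts, of which neuron-like cells had 51.1% to 58.6%. Oligodendrocyte-like cells held 43.2% to 49.5% of the Olig1 transcripts, and precursor-like cells 18.6% to 21.1%. Astrocyte-like cells held 33.3% to 34.3% of the Ptprz1 transcripts, and precursor-like cells 16.7% to 19.4%.

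A low count in another class was common. A Pdgfra transcript was found in 64.8% to 77.5% of precursor-like cells and in 6.21% to 10.4% of neuron-like cells, the class used here as background. For Gpr17 the shares were 70.9% to 81.8% and 5.84% to 9.79%. Median depth was 155.5 to 224 transcripts in precursor-like cells and 317 to 662.5 in neuron-like cells. Single transcripts of these genes were therefore not read as expression, and the level in neuron-like cells was taken as the background when cells were sorted by Gpr17 and Pdgfra.

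Across the 28 points given by 7 classes in 4 sections, the panel gene most like Pdgfra, Gpr17 and C1ql1 was in each case Mmp2, a matrix metalloprotease (Pearson r = 0.927, 0.912 and 0.933). The next were Dpysl3 for Pdgfra (r = 0.846) and C1ql1 (r = 0.885), and Marcksl1 for Gpr17 (r = 0.866). Tnr was closest to Cntn1, which encodes the adhesion protein contactin-1 (r = 0.935), and then to Dpysl3 (r = 0.891). Olig1 was closest to Sirt2 (r = 0.945) and Phldb1 (r = 0.914), and Ptprz1 to Fabp7 (r = 0.928) and S100a6 (r = 0.905). Among the 6 genes themselves, Pdgfra and C1ql1 were the closest pair (r = 0.981) and Tnr and Ptprz1 the least alike (r = 0.542). The points share their sections and depths, so these values describe likeness and carry no p.

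The course along the lineage was drawn with 12 mature oligodendrocyte genes, which include none of the 6. They were Mobp, Mag, Mal, Opalin, Cldn11, Trf, Cryab, Tspan2, Gatm, Dbndd2, Il33 and Sirt2, and their share of a cell's transcripts placed each precursor-like or oligodendrocyte-like cell in 1 of 7 bins. Every bin held at least 237 cells in every section. Which cells entered depended on their class and so in part on the 6 genes. The bins are therefore a description. They were not matched between the ages. The bin from 2% to 4% held 610 and 638 cells in Young 1 and Young 2 against 476 and 588 in Aged 1 and Aged 2. That from 16% to 32% held 1755 and 1615 against 2385 and 2701. Of the 12 genes, Il33 and Gatm passed as higher with age in whole sections. The part of this in any order of ages across the bins was not tested.

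Pdgfra was highest in the bin from 2% to 4% mature share, with 397, 412, 405 and 416 per 10000 in Young 1, Young 2, Aged 1 and Aged 2. It was at 22.0, 17.5, 16.3 and 16.4 in the bin from 8% to 16% and at 5.36 to 6.55 above 32%. The ages overlapped in the highest bin and at the end of the course. C1ql1 had its highest bin at the same place, with 50.8, 41.9, 45.3 and 38.8 per 10000, and Ptprz1 did too, with 530, 555, 496 and 433, where both aged sections were below both young ones.

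Gpr17 was highest in the bin from 4% to 8% in Young 1, Young 2 and Aged 1, with 361, 377 and 281 per 10000. Aged 1 was nearly as high from 2% to 4%, with 279. Aged 2 was highest there, with 215, and had 193 from 4% to 8%. In the bin from 8% to 16% it stood at 80.9 and 89.5 in the young against 40.2 and 17.6 in the aged sections. In the bin from 16% to 32% it stood at 66.4 and 88.5 against 28.1 and 21.5. Above 32% it stood at 18.5 and 21.3 against 7.45 and 5.74. Both aged sections were thus below both young ones in every bin from 2% upward, while in the bins below 2% the ages overlapped.

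Tnr showed the same order of ages over the later bins. From 16% to 32% mature share it stood at 41.5 and 41.9 per 10000 in the young and at 17.2 and 18.8 in the aged sections, and above 32% at 9.46 and 9.49 against 4.62 and 4.83. Its highest bin was that from 2% to 4%, with 213, 185, 175 and 167.

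By bin, Olig1 had a low point between 2 high ends. It stood at 386, 396, 430 and 391 per 10000 in the bin from 2% to 4%, was lowest at 78.4, 80.7, 82.5 and 69.7 from 8% to 16%, and was at 182, 184, 195 and 175 above 32%. The ages overlapped in all these bins. A bin can hold both precursor-like and oligodendrocyte-like cells, and the part of that mix in the low point was not tested.

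**Figure D2:**
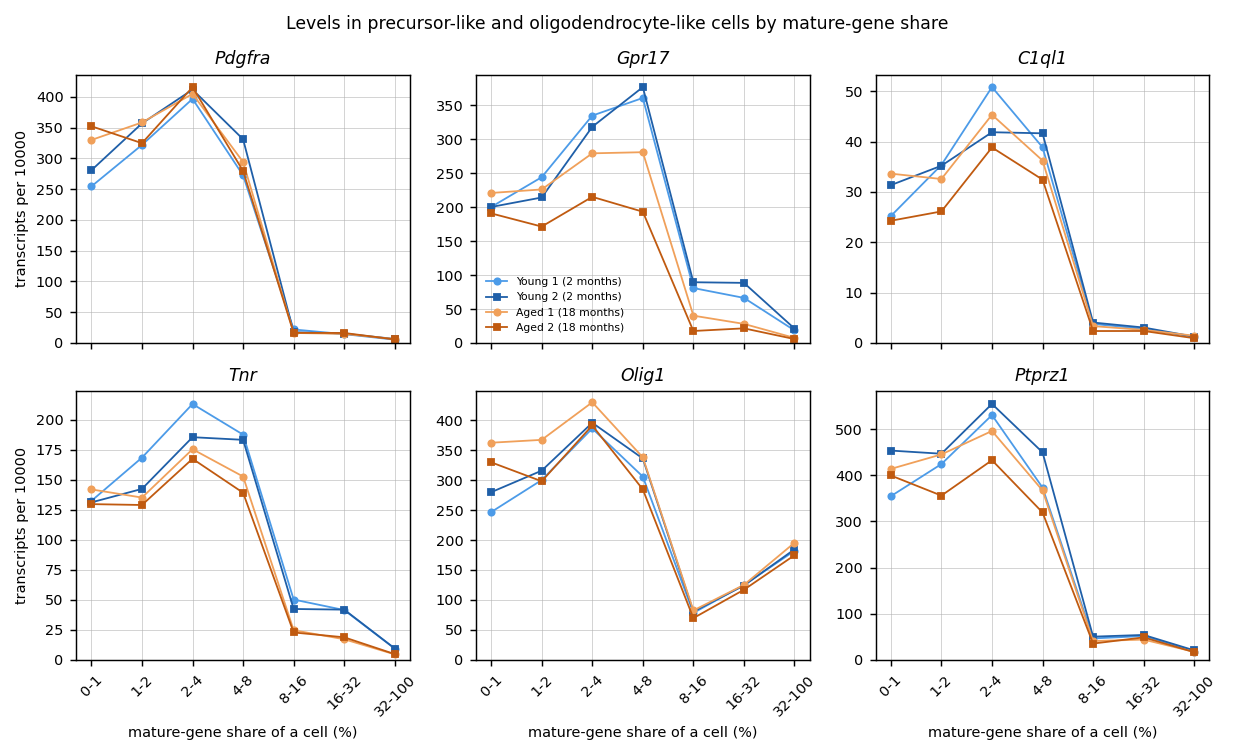
Level of each gene (transcripts per 10000, linear axis from 0) in precursor-like and oligodendrocyte-like cells, binned by the share of 12 mature genes in a cell's transcripts (percent). Each line is 1 section. Gpr17 and Tnr were lower in both aged sections in every bin from 2% upward, and Olig1 was lowest from 8% to 16%. The bins were not matched between the ages in the cells they held.

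Within precursor-like cells, the 15 pairs of the 6 genes were all positively correlated in all sections (1502 to 2086 cells a section, on normalised log counts). The pair Gpr17 and Tnr had the highest r in Young 1, at 0.590, and lay between 0.410 and 0.590 over the sections. Pdgfra with Ptprz1 gave 0.371 to 0.531 and Pdgfra with Olig1 gave 0.398 to 0.519. Pdgfra with Gpr17 gave 0.190 to 0.387, and C1ql1 with Ptprz1 gave 0.170 to 0.292. These cells share their section and depth, and the class itself was defined with these genes, so the values are descriptions.

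Counts of Gpr17 and Pdgfra in the same cell spread along a diagonal with a separate group off it. Cells with 11 to 20 transcripts of both made up 5.99% of young and 6.49% of aged precursor-like cells. Cells with over 20 Gpr17 transcripts and no Pdgfra transcript made up 7.18% (283 cells) in the young and 2.13% (67 cells) in the aged sections. The opposite corner, over 20 Pdgfra transcripts and no Gpr17, held 0.178% and 0.0954%.

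**Figure D3:**
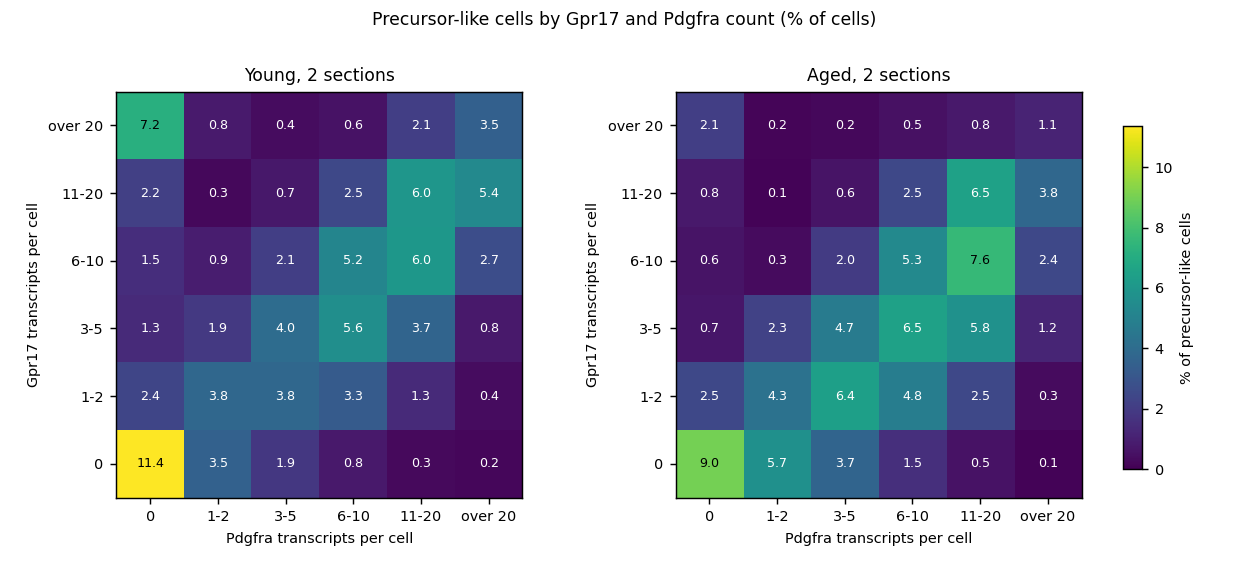
Share of precursor-like cells (percent of the cells of an age, colour and printed number) by the number of Pdgfra transcripts (horizontal) and Gpr17 transcripts (vertical) in the cell. Left, 2 young sections together; right, 2 aged sections together. The upper left corner, Gpr17 over 20 with no Pdgfra, held 7.18% of young and 2.13% of aged cells. Counts are raw, and depth differs between the sections.

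To test the other 4 genes against this axis, precursor-like cells were divided by which of the 2 genes was higher after the neuron-like background was taken off. Pdgfra was above Gpr17 in 4189 cells, called early, and Gpr17 above Pdgfra in 2163 cells, called committed, and 731 cells had neither above background and were left out. Gpr17 and Pdgfra set the division and were not tested on it. The precursor-like class divided here was assigned with none of the genes left out. The other 4 genes thus helped to choose the cells in which they were tested, and the part of this was not tested. The levels here are per 10000 transcripts of the other panel genes, and the test is edgeR's quasi-likelihood test with the section as a block and Benjamini-Hochberg adjustment over 359 genes, of which 49 (13.6%) had an adjusted p under 0.05.

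Of the other 4 genes, 1 rose and 2 fell from early to committed cells. Tnr was 217, 192, 179 and 178 in early cells of Young 1, Young 2, Aged 1 and Aged 2, and 362, 314, 245 and 255 in committed cells. It was higher in committed cells of all 4 sections, by 0.64 ± 0.09 (log2, SE; adjusted p = 0.000784), and passed in all 12 alternative settings. Ptprz1 was 571, 625, 540 and 463 in early and 374, 342, 459 and 403 in committed cells, and fell by 0.44 ± 0.11 (adjusted p = 0.0259). Olig1 was 424, 448, 474 and 421 in early and 319, 292, 425 and 329 in committed cells, and fell by 0.35 ± 0.09 (adjusted p = 0.0262). Both fell in every section, yet each lost its call in 4 of 12 settings, among them the fits without Young 1, Young 2 or Aged 2 (adjusted p up to 0.226 for Ptprz1 and 0.212 for Olig1). C1ql1 differed by -0.05 ± 0.10 (adjusted p = 0.789), with committed cells above early ones in Aged 1 and below in the other sections.

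Of the 12 mature genes, 7 rose in committed cells and none fell, with a median log2 change of 0.53 beside 0.02 over all genes tested. Cldn11, a tight junction gene of myelin, rose by 2.62 ± 0.22 (adjusted p = 2.56e-05), Mag, a myelin adhesion gene, by 2.37 ± 0.26 (adjusted p = 0.000166), Sirt2, a deacetylase, by 2.00 ± 0.16 and Dbndd2 by 1.17 ± 0.12. Among 15 regulators of differentiation and division, 2 rose and 5 fell. Cdkn1c, a cell cycle inhibitor, rose by 0.92 ± 0.17 and Sox4, a transcription factor, by 0.70 ± 0.10. Top2a, a topoisomerase of dividing cells, fell by 2.24 ± 0.36 (adjusted p = 0.00215) and Ect2, which acts in cell division, by 1.15 ± 0.24. Without Young 1 the calls of Ect2 (adjusted p = 0.1296) and Cdkn1c (adjusted p = 0.0809) were lost. Of the PDGF genes Pdgfa, Pdgfb and Pdgfrb, 1 of 3 rose, Pdgfa, the ligand of the Pdgfra receptor, by 0.88 ± 0.23 (adjusted p = 0.0300). That last call was lost in 6 settings, among them the fits without Young 1, Young 2 or Aged 2 (adjusted p 0.239, 0.105 and 0.0585). Markers of other cells also moved between the stages: 1 of 8 neuron markers, 1 of 3 interneuron markers and 2 of 4 neuroblast markers fell, and 1 of 4 neuroblast markers rose. Their part in these results was not tested.

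In precursor-like cells, 4 of the 6 genes were higher in white matter. The white matter zone was taken as the places where at least 40% of the cells within 150 µm were oligodendrocyte-like. It was drawn from the clusters, which used all panel genes and so the 6 genes too, and it held 114 to 166 precursor-like cells a section. In the same edgeR test, blocked by section, 129 of 355 genes (36.3%) passed between precursor-like cells inside and outside this zone, so a call here is common. Gpr17 was 398, 364, 301 and 213 per 10000 outside and 455, 577, 474 and 309 inside the zone, higher inside in all 4 sections by 0.61 ± 0.10 (log2; adjusted p = 0.000286). Tnr was 236, 197, 170 and 163 outside and 289, 273, 316 and 250 inside, higher by 0.67 ± 0.11 (adjusted p = 0.000236). Olig1 was 330, 324, 385 and 331 outside and 368, 422, 587 and 522 inside, higher by 0.55 ± 0.10 (adjusted p = 0.000534). These 3 passed in all 12 alternative settings.

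Ptprz1 passed narrowly, by 0.24 ± 0.09 (adjusted p = 0.0489), and lost its call in 7 of 12 settings, among them the fits without Young 1, Young 2 or Aged 2 (adjusted p 0.0602, 0.216 and 0.158). Pdgfra differed by 0.17 ± 0.09 (adjusted p = 0.174) and C1ql1 by 0.30 ± 0.15 (adjusted p = 0.157). Each of these genes passed in 2 of 12 alternative settings. Pdgfra passed with mixed cells left out (0.63, adjusted p = 0.00836). It also passed with all the followed genes left out of the assignment together (0.82, adjusted p = 0.0001735). C1ql1 passed in that setting as well (0.92, adjusted p = 0.0035). Without Young 1, C1ql1 passed with a difference of 0.47 (adjusted p = 0.0443). Scaled by cell volume in place of total transcripts, which lowered the median of all genes by 0.24, Pdgfra was at -0.05 and Ptprz1 at -0.01.

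Markers of neighbouring cells moved with position as well. All 12 mature genes rose in precursor-like cells of the white matter zone (median 2.08 beside 0.02 over all genes), with Mal by 3.02 ± 0.16, Opalin by 2.81 ± 0.24, Trf by 2.54 ± 0.15 and Mobp by 2.53 ± 0.19. Medium spiny neuron markers fell for 7 of 8 genes (median -1.86) and neuron markers for 7 of 8 (median -1.50). The part of transcripts from neighbouring cells in these levels was not tested. Among the 15 regulators, 9 rose and 1 fell. Top2a rose by 2.42 ± 0.30, Ect2 by 1.59 ± 0.23 and Cdkn1a, a cell cycle inhibitor, by 1.23 ± 0.30. Top2a was 14.4, 16.7, 5.11 and 2.48 per 10000 outside and 115, 28.9, 34.3 and 17.3 inside, in Young 1, Young 2, Aged 1 and Aged 2. Ect2 was 7.24, 8.76, 3.66 and 4.15 outside and 33.8, 18.0, 7.23 and 10.8 inside. Inside the zone, Young 1 was the highest section for both. The call of Cdkn1a was lost without Young 2 (adjusted p = 0.0922) and that of Ect2 with mixed cells left out (0.93, adjusted p = 0.0642). The 1 that fell was Hes5, a Notch target, from 7.02, 8.13, 7.32 and 7.99 per 10000 outside to 1.73, 1.24, 3.01 and 1.64 inside. Pdgfa was higher by 0.90 ± 0.19, which was 0.27 with mixed cells left out (adjusted p = 0.655) and turned to -0.10 when the clusters' own classes were used.

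With age, 1 of the 6 genes passed the test in any tissue zone, and that was Gpr17 in the white matter zone. There, over all cells of the zone, Gpr17 stood at 33.3 and 47.8 per 10000 in Young 1 and Young 2 and at 14.8 and 13.8 in Aged 1 and Aged 2. It fell by 1.51 ± 0.25 on the log2 scale (edgeR quasi-likelihood test, adjusted p = 0.00558), a 2.85-fold difference. In this comparison 17 of 383 genes (4.44%) passed. Gpr17 passed in 9 of 11 alternative settings, with adjusted p between 8.14e-10 and 0.227. The call was lost without Aged 1 (-1.63, adjusted p = 0.124) and without Aged 2 (-1.42, adjusted p = 0.227), where no gene of the panel passed. In a sum over a zone, fewer cells of a type and fewer transcripts per cell cannot be told apart. In the zone's precursor-like cells Gpr17 was 455, 577, 474 and 309 per 10000 in Young 1, Young 2, Aged 1 and Aged 2, and the ages overlapped. The density of precursor-like cells there was 72.9, 80.6, 35.7 and 46.0 per mm², without overlap. The part of each in the fall was not tested. The zone was also larger in the aged sections, 3.20 and 3.11 mm² against 1.78 and 2.06 mm².

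Tnr went the same way in the white matter zone without passing, at 24.2, 22.2, 13.4 and 13.7 per 10000 (-0.77 ± 0.20, adjusted p = 0.0543). The young and aged sections did not overlap. The call was made with DESeq2 (adjusted p = 0.00929) and with mixed cells left out (adjusted p = 0.0178). The other 4 genes were not called. Ptprz1 was at -0.39 ± 0.20 (adjusted p = 0.327), Pdgfra at -0.35 ± 0.21 (adjusted p = 0.429), C1ql1 at -0.36 ± 0.27 (adjusted p = 0.549) and Olig1 at -0.03 ± 0.24 (adjusted p = 0.968).

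Of the 15 regulators, 7 fell and none rose in the white matter zone with age (median -0.88 beside 0.02 over all genes). Top2a fell by 2.45 ± 0.31 (adjusted p = 0.00121). Fabp7, a fatty acid-binding protein gene of immature glia, went from 2.29 and 3.26 to 0.920 and 1.04 per 10000 (adjusted p = 0.0166). Sox11, a transcription factor of young neurons and precursors, fell by 1.37 ± 0.24 and Marcks by 1.21 ± 0.25. These 4 calls too were lost without Aged 1 or Aged 2 (adjusted p 0.0596 to 0.231), and that of Marcks also without Young 2 (adjusted p = 0.0792). None of the 12 mature genes and none of the 3 PDGF genes passed. Neuroblast markers stood at 39.6, 28.8, 19.4 and 20.1 per 10000 in the zone, all 4 of them lower in both aged sections and none at 0, and neuron markers at 350, 228, 459 and 498, higher in both aged sections. The 5 oligodendrocyte markers together stood at 1461, 1679, 1411 and 1173, lower in both aged sections, as were 3 of the 5 singly. The part of these markers in the change of Gpr17 was not tested.

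In whole sections 5 of 383 genes (1.31%) passed and none of the 6 did. Gpr17 was 10.7, 10.9, 8.56 and 6.03 per 10000 (-0.52 ± 0.21, adjusted p = 0.531), with both aged sections below both young ones, and it passed when mixed cells were left out (-1.10, adjusted p = 0.00675). The other 5 genes lay between -0.15 and 0.31 with adjusted p of 0.761 to 0.972. Of the mature genes 2 rose, Il33 by 1.22 ± 0.20, lost without Aged 1 or Aged 2 (adjusted p 0.764 and 0.326), and Gatm by 0.75 ± 0.17, lost without any one section (adjusted p 0.0927 to 0.779). Of the regulators 1 fell, Top2a, by 1.09 ± 0.26, also lost without any one section (adjusted p 0.0927 to 0.764).

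In the striatal zone, where at least 40% of cells within 150 µm were medium spiny neuron-like, 1 of 383 genes (0.261%) passed. Gpr17 was 8.70, 8.28, 7.19 and 4.80 per 10000 (-0.48 ± 0.23, adjusted p = 0.724), and the other 5 genes lay between -0.19 and 0.21. The 1 gene was Il33 of the mature list, which rose by 1.10 ± 0.19 and was not called without Young 2 (adjusted p = 0.105) or Aged 1 (adjusted p = 0.269).

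Summed over all cells of a zone, the age change of Gpr17 differed between the 2 zones. Within precursor-like cells, aged less young was -124 per 10000 in the white matter zone, where the ages overlapped, and -125 in the striatal zone. The density of precursor-like cells differed by -35.9 and -6.96 per mm². The part of these values in the difference between zones was not tested. In a fit of zone by age with the section as a block, a comparison added after the data had been seen, 27 of 383 genes (7.05%) passed. The change of Gpr17 was lower in the white matter zone than in the striatal zone by 1.01 ± 0.23 (adjusted p = 0.0186), and it was called in 6 of 9 alternative settings. Without Young 2 the difference was -0.60 (adjusted p = 0.342). Tnr (-0.63 ± 0.18, adjusted p = 0.0526) and Pdgfra (-0.61 ± 0.18, adjusted p = 0.0584) lay just outside the threshold. Tnr passed without Young 1 (-0.70) and Pdgfra without Aged 2 (-0.80), fits that leave 1 section at an age.

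Within precursor-like cells no gene of 379 (0%) passed with age by edgeR, while 36 had an unadjusted p under 0.05 and DESeq2 called 7. Gpr17 had the values 402, 376, 311 and 219 given above, a change of -0.56 ± 0.18 (adjusted p = 0.352). It passed in 7 of 14 alternative settings. Among them were the fits without Young 1, Young 2 or Aged 1 (-0.56, -0.57 and -0.85). Each of these leaves 1 section at an age, so its p cannot measure the spread within that age. Without Aged 2 the change was -0.32. This class holds 456 cells with at least 5 transcripts of the neuroblast genes Dcx, Sox11 and Dlx6os1, 185, 150, 40 and 81 in Young 1, Young 2, Aged 1 and Aged 2. With these left out the change of Gpr17 was -0.68 (adjusted p = 0.0175). Summed markers of other cells also differed between the ages in this class with no overlap. Neuroblast markers stood at 105, 96.5, 62.8 and 72.8 per 10000 and oligodendrocyte markers at 85.4, 92.2, 57.2 and 64.2, lower in both aged sections. Neuron markers stood at 512, 534, 592 and 602 and astrocyte markers at 481, 509, 527 and 561, higher in both. Their part in the changes of the 6 genes was not tested. Tnr was at -0.35 ± 0.12 (adjusted p = 0.366), with the ages not overlapping. Pdgfra was at 0.17 ± 0.10 (adjusted p = 0.625) with both aged sections above both young ones, and Olig1 was at 0.15 ± 0.12, C1ql1 at -0.06 ± 0.15 and Ptprz1 at -0.08 ± 0.12. In fits scaled by cell volume the median of all genes shifted by -0.37, and Pdgfra was then at -0.23 and Olig1 at -0.25.

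In oligodendrocyte-like cells 1 of 383 genes (0.261%) passed, and it was none of the 6. Gpr17 there was 16.2, 19.7, 8.12 and 5.99 per 10000, a change of -1.37 ± 0.22 (adjusted p = 0.0566), with both aged sections below both young ones. It passed in 7 of 13 alternative settings. Among them were DESeq2 (adjusted p = 3.69e-07) and the fit without Aged 2 (-1.08), which leaves 1 aged section. A few cells held a large part of these transcripts. Cells with 10 or more Gpr17 transcripts numbered 119, 120, 26 and 30, or 1.60%, 1.61%, 0.256% and 0.278% of the class, and carried 60.3%, 63.3%, 42.3% and 47.6% of its Gpr17. Tnr in this class was at -0.60 ± 0.15 (adjusted p = 0.196), and the other 4 genes lay between -0.06 and 0.06.

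In astrocyte-like cells, the class second in Ptprz1, 8 of 383 genes (2.09%) passed and none of the 6. Ptprz1 was 210, 221, 202 and 196 per 10000 there (-0.11 ± 0.12, adjusted p = 0.749). Of the regulators 4 fell in this class, Top2a, Ect2, Sox11 and Marcksl1, by 1.01 to 2.17, and each of the 4 lost its call without Young 2 (adjusted p 0.0642 to 0.226), all but Top2a without Young 1 (adjusted p 0.0843 to 0.296) and Ect2 also without Aged 1 (adjusted p = 0.0671). With mixed cells left out, Ect2 (adjusted p = 0.115) and Marcksl1 (adjusted p = 0.0717) were not called. Neuroblast markers in this class stood at 64.4, 84.2, 32.7 and 36.5 per 10000, all 4 of them lower in both aged sections, and their part in these falls was not tested.

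**Figure D4:**
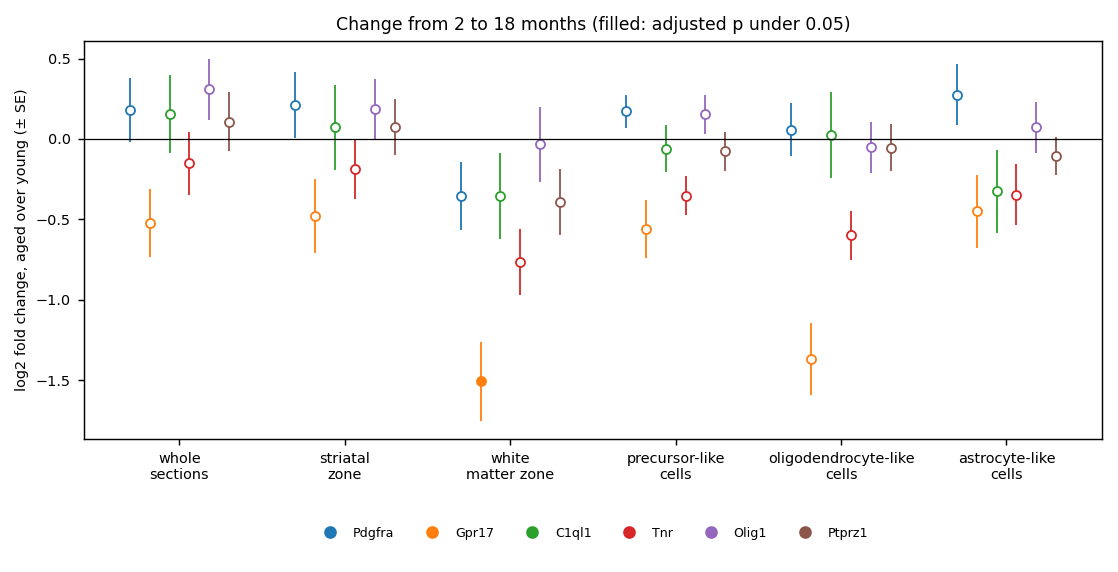
Change of each gene from 2 to 18 months (log2 aged over young, point, with its SE, bar) in whole sections, 2 tissue zones and 3 cell classes. A filled point has an adjusted p under 0.05. Gpr17 in the white matter zone, at -1.51, is the filled one, and Gpr17 lay below 0 in all 6.

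Cells rich in Gpr17 were then counted. A cell was called Gpr17-rich and Pdgfra-poor when it held 20 or more Gpr17 and 2 or fewer Pdgfra transcripts, limits chosen after the data had been seen. There were 169 and 158 such cells in Young 1 and Young 2 and 42 and 33 in Aged 1 and Aged 2, which is 9.12%, 7.57%, 2.80% and 2.01% of precursor-like cells. Their density was 4.98, 3.95, 1.12 and 0.849 per mm², a 4.54-fold difference between the age means. An exact permutation test of 2 against 2 sections cannot give a two-sided p under 0.333, and it gave 0.333. With 1 section left out at a time the fold lay between 3.99 and 5.26.

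Depth differs between sections, so the count was repeated in cells with 150 or more transcripts, each thinned to 150, with limits of 10 or more Gpr17 and 1 or fewer Pdgfra. This left out 625, 933, 732 and 637 shallower cells in the 4 sections. There were then 138, 133, 37 and 29 such cells, or 11.2%, 11.5%, 4.81% and 2.89% of those kept, and the density differed 4.27-fold (exact p = 0.333). In the white matter zone the unthinned density was 13.5, 11.7, 2.81 and 2.25 per mm², in the striatal zone 4.36, 2.57, 0.752 and 0.714, and elsewhere 4.32, 3.82, 1.01 and 0.687. The young sections were above the aged ones in all 3.

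The other genes were read in these cells as well. Their Tnr was 505, 391, 446 and 439 per 10000, above the level of committed cells as a whole, which was 329, 286, 227 and 237. Their mature genes stood at 1187, 1197, 1144 and 1392 per 10000, between the early cells with 276 to 326 and the oligodendrocyte-like cells with 3040 to 3406. Olig1 was 174, 182, 184 and 166, and Ptprz1 was 126, 146, 142 and 107. For these 3 genes and the mature genes the ages overlapped, at 33 to 169 cells a section.

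All precursor-like cells together differed less with age than the Gpr17-rich ones. Their density was 54.7, 52.2, 40.1 and 42.2 per mm², a 1.30-fold difference between the age means (exact p = 0.333). Most of these cells also carried markers of another class. With such mixed cells left out, as the study did by a threshold not given in the sources used here, mean density went from 53.4 to 14.3 per mm² in the young and from 41.2 to 10.9 in the aged sections. That of Gpr17-rich cells went from 4.47 to 0.731 and from 0.985 to 0.144. With mixed cells kept, the density of all precursor-like cells in the white matter zone was 72.9, 80.6, 35.7 and 46.0 per mm² (1.88-fold). In the striatal zone it was 42.3, 39.4, 34.7 and 33.1 (1.21-fold). The ages did not overlap in either zone. Early cells had 30.4, 28.8, 23.2 and 29.3 per mm², which overlapped. The share of committed cells among those with a stage was 39.5%, 35.7%, 36.7% and 23.5% (exact p = 0.667), where Aged 2 alone was below the young sections. Oligodendrocyte-like cells had 219, 186, 271 and 278 per mm², higher in both aged sections (exact p = 0.333).

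**Figure D5:**
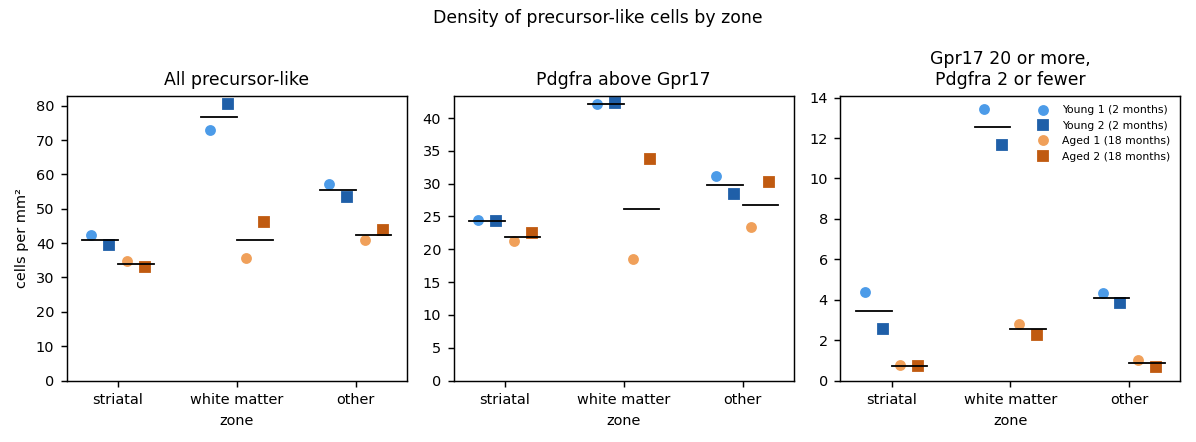
Density (cells per mm², axes from 0) of all precursor-like cells, of those with Pdgfra above Gpr17, and of those with Gpr17 20 or more and Pdgfra 2 or fewer, in 3 tissue zones. Each point is 1 section and each line the mean of an age. The Gpr17-rich cells lay at 2.57 to 13.5 per mm² in young and 0.687 to 2.81 in aged sections.

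Whether the step from early to committed cells was itself different with age was tested as an interaction, in which 9 of 365 genes (2.47%) passed. Ptprz1 was one of them. Its fall from early to committed cells was from 571 to 374 and from 625 to 342 in the young and from 540 to 459 and from 463 to 403 in the aged sections, and the log2 step was higher in the aged by 0.49 ± 0.09 (adjusted p = 0.00977). It was called in 5 of 12 alternative settings, and not without Aged 1 (adjusted p = 0.636) or Aged 2 (adjusted p = 0.581). Tnr was at -0.28 ± 0.09 (adjusted p = 0.204), Olig1 at 0.22 ± 0.09 (adjusted p = 0.394) and C1ql1 at 0.33 ± 0.15 (adjusted p = 0.445).

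Of the 12 mature genes, 4 had a smaller step in the aged sections and none a larger one. Cldn11 rose from 8.80 to 74.5 and from 10.8 to 101 in the young and from 6.93 to 27.0 and from 11.3 to 40.01 in the aged sections, an interaction of -1.31 ± 0.16 (adjusted p = 0.000580). Mag was at -1.55 ± 0.19, Sirt2 at -0.90 ± 0.13 and Tspan2, a tetraspanin of myelin, at -0.60 ± 0.14, and Pdgfa was at -1.35 ± 0.22 (adjusted p = 0.00322). All of these were lost without Aged 1 (adjusted p 0.355 to 0.646) or Aged 2 (adjusted p 0.581 to 0.627), and Tspan2 also without Young 2 (adjusted p = 0.465). In committed cells Pdgfra stood at 166 and 146 per 10000 of all transcripts in the young and at 239 and 208 in the aged sections. A Pdgfra transcript was found in 58.1% and 54.3% of these cells in the young and in 76.0% and 74.8% in the aged sections. The committed group thus did not hold the same mix at both ages. The part of this mix in the interaction was not tested.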

How the data were processed

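Sections were grouped by sample title. Images were decoded by the authors with MERLIN v.0.1.6. Per cell and gene, the authors deposited a raw count of transcripts. Running numbers inside the 2 young files differ from the titles, which were followed. The deposited volume (a signal in µm³, from segmentation by the authors) and positions were used as given.

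Cells with under 10 genes or under 50 µm³ were dropped. Clusters (15 components, 20 neighbours, Louvain resolution 0.08, igraph 0.11.9) were named from markers, the precursor cluster from the followed genes. A multinomial model then assigned classes. Each followed gene was left out in turn for its own class levels and its tests by age and position. Early and committed cells came from the assignment with no gene left out. With no gene left out, the model found 89.8% of the precursor cluster, and 75.7% of the 7083 precursor-like cells lay in that cluster. With all the followed genes left out together, it found 81.3% of the cluster. The class then held 10575 cells, of which 45.9% lay in the cluster. The authors removed cells with markers of several types. Here such cells were kept, since the rule removes deeper cells more often, and leaving them out is an alternative.

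Counts summed per section were tested with edgeR 4.0.16 (quasi-likelihood, TMM, low-count filter, Benjamini-Hochberg), and DESeq2 1.42.0 was an alternative. On simulated data of the white matter zone fit (383 genes), 60% of 2-fold and 96% of 3-fold changes were called. The simulation gave all genes the same dispersion, which real genes need not share. Shares and densities had exact permutation tests. Named genes were the 6 genes, up to 4 called genes of each list with the largest change, and the 2 most alike genes. Members and lists were chosen with earlier results of these data known.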

Additional observations from a re-analysis of the deposited data

Results flagged for a closer look

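The results below stand out because the effect in 1 group of cells or tissue differed from that in another by an interaction test. Summed over all cells of a zone, the change of Gpr17 with age was lower by 1.01 (log2) in the white matter zone than in the striatal zone. The step from early to committed cells differed between young and aged sections for 9 genes of the panel. Of these, 6 belong to the genes or lists followed here, and their values are given as aged less young on the log2 scale. It was higher in the aged for Ptprz1, by 0.49, and lower for Mag (-1.55), Pdgfa (-1.35), Cldn11 (-1.31), Sirt2 (-0.90) and Tspan2 (-0.60). The weight of single sections in each of these is given beside the result.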

How the results depend on the processing

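Direction and call were unchanged for 557 of the 660 values that alternatives gave for the 6 genes, 27 gained a call, 26 lost it and 50 changed sign. None of the values that changed sign was called under the alternative. Counts of genes called moved by over 1.5 times as follows, and the cause was not tested. In whole sections (5) there was 1 without TMM, 0 scaled by volume and 0 to 1 with a section left out. In the striatal zone (1) there were 3 by DESeq2, 0 by volume, 27 without mixed cells and 0 to 3 with a section left out. In the white matter zone (17) there were 10 without TMM, 11 by volume, 38 without mixed cells and 0 to 15 with a section left out. In precursor-like cells (0) there were 7 by DESeq2, 8 without TMM, 6 by volume, 17 without mixed cells, 11 with all 6 genes out of the assignment, 9 from clusters, 5 without neuroblast-rich cells and 7 to 11 with a section left out. In oligodendrocyte-like cells (1) there were 14 by DESeq2, 12 without TMM, 22 by volume, 2 without mixed cells, 11 from clusters and 0 to 18 with a section left out. In astrocyte-like cells (8) there were 15 by DESeq2, 13 by volume and 0 to 16 with a section left out. Committed against early (49) gave 29 by DESeq2, 18 without mixed cells, 30 from clusters and 12 to 47 with a section left out. Stage by age (9) gave 4 by DESeq2, 2 without mixed cells, 4 from raw counts and 0 to 18 with a section left out. White against grey matter (129) gave 65 without mixed cells and 92 to 128 with a section left out. Zone by age (27) gave 0 without TMM, 1 without mixed cells and 0 to 45 with a section left out. The density difference of precursor-like cells (aged less young, -12.2 per mm²) was -3.40 without mixed cells, -35.9 in white matter, -6.96 in the striatal zone, -17.0 with all 6 genes out of the assignment, -7.26 from clusters, -9.22 without neuroblast-rich cells and -13.5 to -11.0 with a section left out. That of Gpr17-rich cells (-3.48) was -10.02 in white matter, -2.73 in the striatal zone, -0.587 without mixed cells, -2.24 from clusters, -5.31 in any class and -4.00 to -2.97 with a section left out. The committed share differed by -14.1 to -0.893 points with a section left out. Scaled by volume, log2 changes turned to -0.39 for Pdgfra, -0.46 for C1ql1, -0.28 for Olig1 and -0.48 for Ptprz1 in whole sections, and to -0.30, -0.47, -0.34 and -0.44 in the striatal zone. They turned to -0.23 for Pdgfra and -0.25 for Olig1 in precursor-like, -0.52 for Pdgfra and -0.58 for C1ql1 in oligodendrocyte-like, and -0.14 for Pdgfra and -0.35 for Olig1 in astrocyte-like cells, and to -0.0500 for Pdgfra and -0.0074 for Ptprz1 between white and grey matter. Volume scaling moved the median of all genes by -0.62 to -0.37 in the age fits. Without mixed cells, C1ql1 was at -0.0010, Tnr at 0.0478 and Ptprz1 at -0.25 in whole sections. C1ql1 was at -0.25, Tnr at 0.20, Olig1 at -0.0242 and Ptprz1 at -0.16 in the striatal zone. Olig1 was at 0.10 in the white matter zone, -0.0830 in astrocyte-like cells and 0.24 for zone by age. C1ql1 was at 0.19 and Ptprz1 at 0.14 in precursor-like and Ptprz1 at 0.0603 in oligodendrocyte-like cells. From clusters, Olig1 was at 0.0030 in oligodendrocyte-like and -0.0284 in astrocyte-like cells, C1ql1 at 0.0882 in committed cells and Pdgfa at -0.10 between white and grey matter. With 1 section left out, sign changed over these ranges. In whole sections C1ql1 lay at -0.11 to 0.36 and Ptprz1 at -0.0327 to 0.21. In the striatal zone C1ql1 lay at -0.0842 to 0.22, Olig1 at -0.0189 to 0.37 and Ptprz1 at -0.0726 to 0.25. In the white matter zone Olig1 lay at -0.20 to 0.11. In precursor-like cells C1ql1 lay at -0.18 to 0.0499 and Ptprz1 at -0.20 to 0.0350. In oligodendrocyte-like cells Pdgfra lay at -0.0290 to 0.21, C1ql1 at -0.28 to 0.35, Olig1 at -0.18 to 0.13 and Ptprz1 at -0.0548 to 0.0406. In astrocyte-like cells Olig1 lay at -0.0269 to 0.20, and in committed against early cells C1ql1 lay at -0.14 to 0.00902. The replicate numbers share no stated source and did not pair the sections (correlations of deviations -0.41 to -0.08). With the number as a replicate block the counts were 4, 1, 23, 3, 10 and 12 in the 6 age fits in the order above, and with crossed numbers, a pairing chosen after seeing the data, 6, 3, 8, 0, 3 and 8. The block has no meaning in the fits blocked by section. In precursor-like cells, 88% of simulated 2-fold and 44% of 1.5-fold changes were called, which limits what smaller changes could show. There were 4 false calls in 5 draws. The simulation gave all genes the same dispersion and left genes of low count unchanged, so these shares may not hold for the real data.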
